A study of Drosophila melanogaster with 8 samples.

Results

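In hearts of adult Drosophila melanogaster, 57 genes had a higher transcript signal at 5 weeks than at 1 week of age in both of the crosses that were profiled. They were chosen from 11982 genes, each represented by the probe set with its highest mean. A gene was taken when its lowest signal on the 4 arrays of 5-week hearts lay at least 0.7 on the log2 scale above its highest signal on the 4 arrays of 1-week hearts. This gap was met by 72 genes, 0.601% of those measured, and 15 of them were set aside by symbol because they belong to large families of detoxification, cuticle, odorant-binding, digestive, antimicrobial, metallothionein or neprilysin peptidase genes or were named singly, among them Nep2, LysX, GstD5, AttD and alphaTry. Since the values at both ages chose the genes, their rise with age is a description and carries no test. Of the 57, 56 are annotated as protein-coding and 1 as a long noncoding RNA, and 34 are still known only by a CG number.

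The 8 arrays fall into 4 groups of 2. The control hearts came from flies of the driver line GMH5 crossed to yw, at 1 week and at 5 weeks, and the FOXO hearts from GMH5 crossed to a line labelled FOXO, at the same ages. GMH5 carries a GAL4 driver that is active in the heart and is present in every group, controls included, yw is a laboratory strain, and FOXO is the transcription factor restrained by insulin signalling. All flies are labelled adult and female. Hearts were dissected after fat and pericardial cells had been drawn off by suction, their RNA was amplified, and the biotin-labelled cDNA was hybridised to Affymetrix GeneChip arrays. How many flies went into a sample, and whether the replicates came from separate flies, is not given in the labels, and the p-values then reflect variation that may be technical.

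Ageing fly tissues are known for raised transcripts of innate immunity. In the Imd pathway, peptidoglycan of bacteria is sensed by PGRP proteins and the NF-kB factor Relish switches on defence genes. The STING protein, an adaptor of the endoplasmic reticulum that binds cyclic dinucleotides, also acts through Relish and is known in flies for defence against viruses. Both pathways have members among the 57.

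Array medians of log2 signal lay between 6.05 and 6.43. Across probe sets the replicate arrays correlated at 0.997 in young control hearts, 0.996 in control hearts at 5 weeks and 0.995 in FOXO hearts at 5 weeks, and at 0.963 in FOXO hearts at 1 week. Heart and muscle markers had a median signal between 11.85 and 12.41 on all 8 arrays, but only 4 of the 18 measured had a positive change with age over both crosses. By limma 0 rose and 2 fell, sls (-1.01 ± 0.15, adjusted p = 0.0284) and mid (-0.95 ± 0.17, adjusted p = 0.0459), where 0.976% of all genes were called lower. Markers of other tissues did not follow the female label evenly: 24 late spermatogenesis transcripts had medians of 9.10 on both control arrays at 1 week and of 10.12 and 9.97 on the FOXO arrays at 5 weeks, against 4.85 to 6.30 on the others. The 5 transcripts of female fat body and oenocytes had medians of 6.18 to 6.75 on 3 of the arrays at 1 week and of 13.03 to 13.44 on the other 5 arrays. They are part of 17 fat body and oenocyte markers, 13 with a positive change over both crosses and a median of 0.11. By limma 0 of the 17 rose or fell, where 1.21% of all genes were called higher and 0.976% lower. Replicate 1 of FOXO at 1 week stood apart, with an oocyte and nurse cell median of 10.43 against 4.82 to 6.50 elsewhere. At neither age was the foxo signal on both arrays labelled FOXO above that on the control arrays. It was 10.46 and 10.87 in FOXO hearts at 1 week and 10.22 and 10.24 at 5 weeks. In control hearts it was 10.68 and 10.75 at 1 week and 10.32 and 10.44 at 5 weeks, so the highest value was on a young FOXO array. The label FOXO is thus not borne out by this probe set. Whether the probe set would read foxo from the line labelled FOXO was not tested, and FOXO hearts here means hearts so labelled. In RNA from whole tissue, fewer cells of a type and less RNA per cell cannot be told apart.

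The members covered a wide range of signal, and the median rise was the same in both crosses although single genes differed. Their mean at 1 week ran from 3.93 to 11.19 with a median of 6.78, and at 5 weeks from 5.55 to 12.94 with a median of 9.21. In control hearts the rise had a median of 1.78 on the log2 scale, a factor of 3.42, and ran from 0.83 to 4.58. In FOXO hearts the median was also 1.78, a factor of 3.44, with a range of 0.93 to 4.64. Of the 57 genes 18 lay below the array median on all 4 arrays at 1 week, 2 did so on all 8 arrays, and 30 lay above it on all 8. The spread at 1 week was largest in FOXO hearts, where 11 members differed by more than 1 between the replicates and 8 of these were lower on replicate 1. In each of the other groups no member differed by more than 1. Replicate 1 of FOXO at 1 week was the lowest of all arrays for 31 members.

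**Figure D1:**
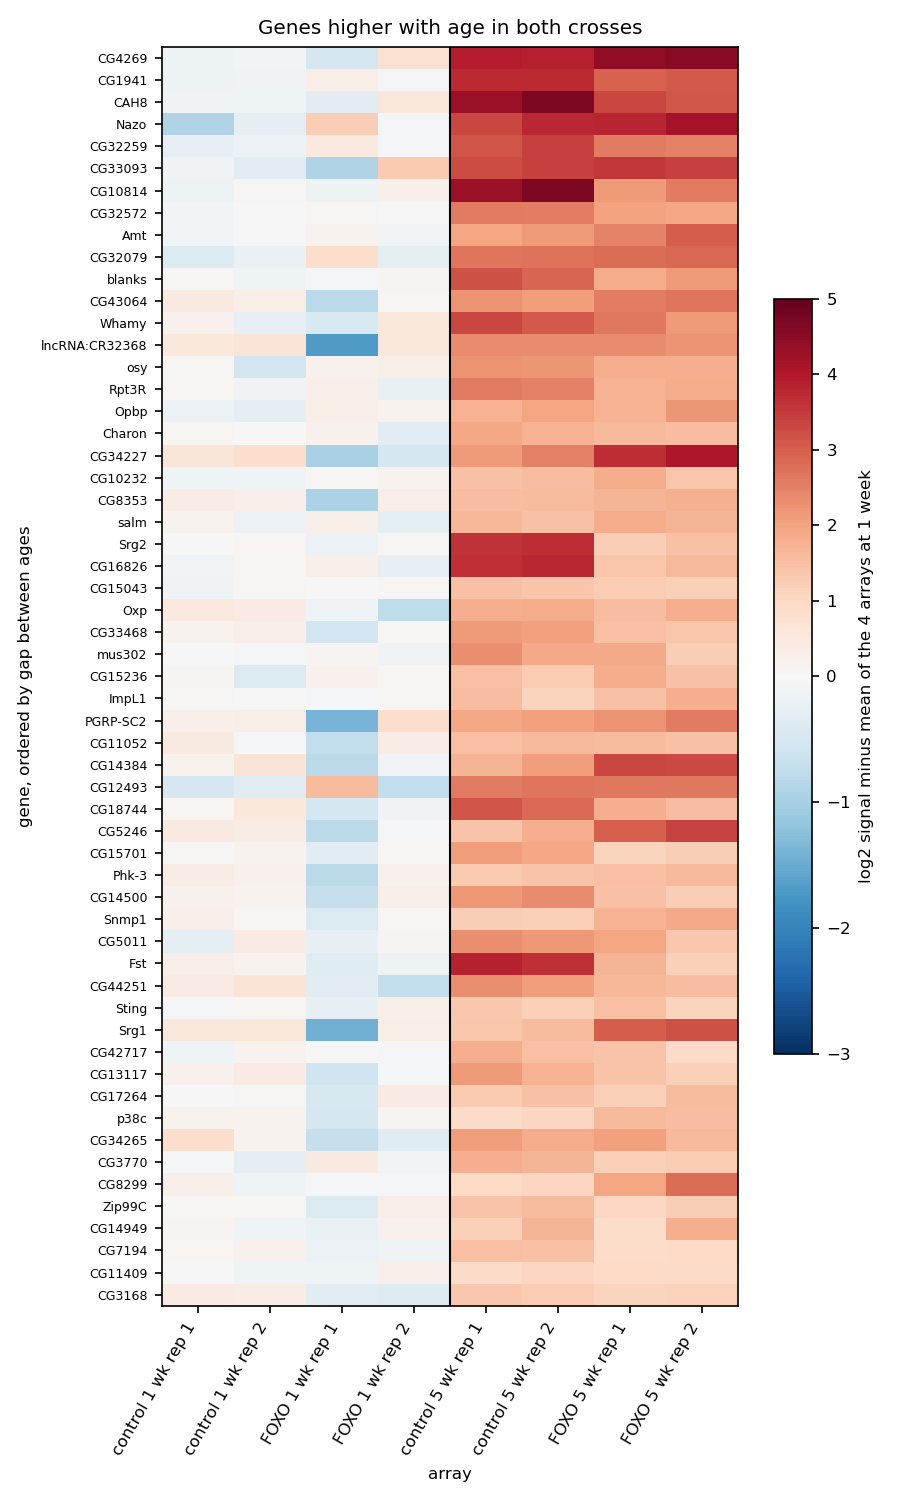
Log2 signal of the 57 genes (rows, ordered by the gap between the ages) on each of the 8 arrays (columns), as the difference from the gene's mean over the 4 arrays at 1 week. The 4 arrays at 5 weeks, right of the line, are higher for every gene because this is how the genes were chosen. Measured from the mean of all young arrays of both crosses, CG10814 and CAH8 are highest on the old control arrays.

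The gap itself had a median of 1.08. It reached at least 1 in 35 genes and at least 2 in 5, which were CG4269, CG1941, CAH8, Nazo and CG32259. Just inside the threshold lay CG3168 (a gap of 0.706), CG11409 (0.711), CG7194 (0.714), CG14949 (0.728) and Zip99C (0.730). Just outside it lay CG43085 (0.696), Cln7 (0.693), CG31161 (0.686), Spn88Ea (0.682) and CG34002 (0.672), which differ little from the 5 nearest members. With either cross alone the gap was met by more genes, 437 in the control arrays and 1345 in the FOXO arrays, and 101 genes met it within each cross.

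Genes of the STING pathway were the largest group that the members shared with a pathway list, 4 genes. The lists were chosen with earlier results of these data known, so this overlap is a description and no evidence of a theme. Sting itself, the adaptor, read 9.94 and 10.03 in control and 9.73 and 10.25 in FOXO hearts at 1 week, and 11.33 and 11.17 in control and 11.49 and 11.10 in FOXO hearts at 5 weeks. The rise was 2.41-fold in control and 2.47-fold in FOXO hearts, and the arrays of the crosses overlapped at each age. Nazo, an antiviral gene controlled by STING, moved from 4.72 and 5.34 in control and 6.85 and 5.60 in FOXO hearts to 8.98 and 9.41 and 9.44 and 9.80. It moved from near or below the array median to well above it in both crosses, by 18.0-fold in control and 10.5-fold in FOXO hearts, and replicate 1 of FOXO was the highest of its young arrays.

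The 2 Sting-regulated genes among the members, Srg1 and Srg2, rose to different extents in the crosses. Srg1 had signals of 10.49 and 10.48 in control and 8.50 and 10.25 in FOXO hearts at 1 week, and of 11.31 and 11.51 and 12.95 and 13.10 at 5 weeks. Its old FOXO arrays were the highest of all, and replicate 1 of young FOXO hearts was the lowest. Srg2 read 4.02 and 4.11 in control and 3.83 and 4.09 in FOXO hearts at 1 week, 7.64 and 7.69 in control hearts at 5 weeks and 5.24 and 5.47 in FOXO hearts at 5 weeks. Here the old control arrays stood far above the old FOXO arrays, the reverse of Srg1. The rise of Srg2 was 12.1-fold in control and 2.63-fold in FOXO hearts, and that of Srg1 was 1.90-fold in control and 12.6-fold in FOXO hearts.

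**Figure D2:**
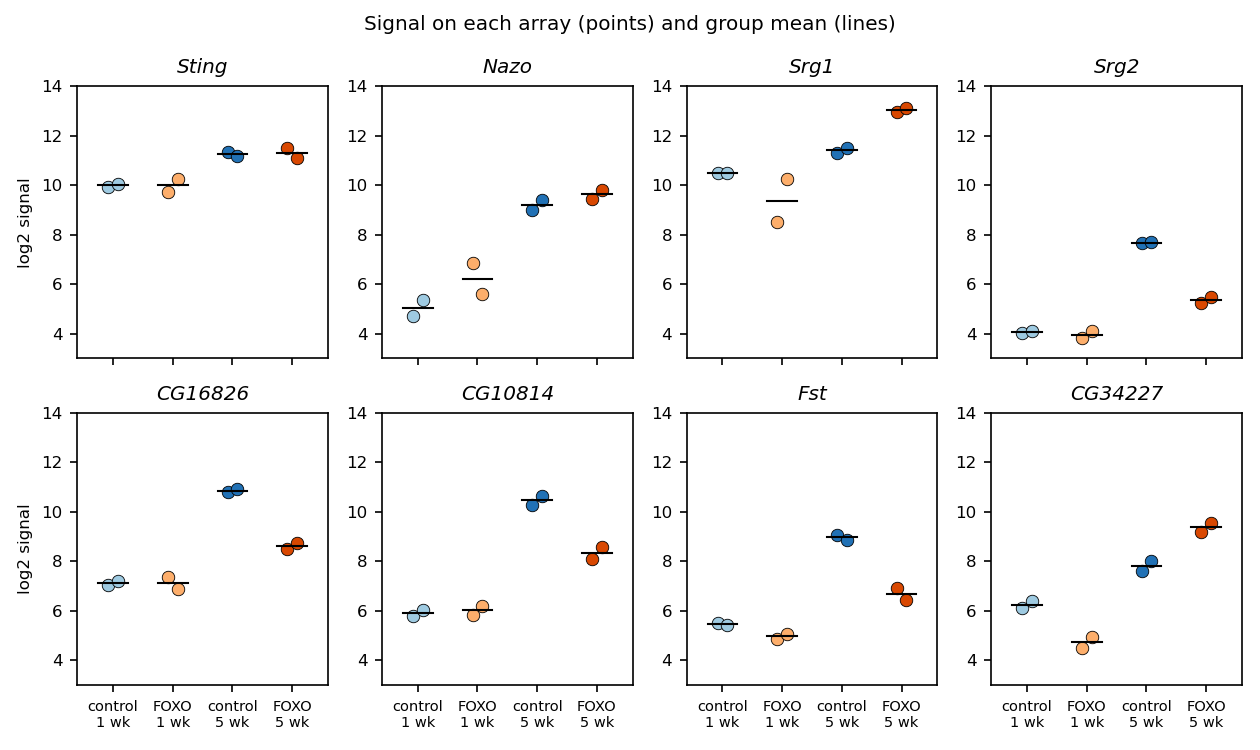
Log2 signal of 8 genes on each array (points, 2 per group) with the group mean (line), for control and FOXO hearts at 1 week and 5 weeks. Sting overlaps between the crosses at both ages, Nazo is high in both at 5 weeks, Srg2, CG16826, CG10814 and Fst are lower in old FOXO than in old control hearts, and Srg1 and CG34227 have their highest points in old FOXO hearts.

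The list of STING and antiviral genes held 9 measured genes besides these 4 members. None of the 9 passed the limma test of 5 weeks against 1 week over both crosses in either direction, 3 of them had an unadjusted p under 0.05, and 7 of 9 had a positive change, with a median of 0.12 on the log2 scale. Over all genes this test called 1.21% higher and 0.976% lower. ref(2)P, an autophagy receptor, had a change of 0.27 ± 0.09 (SE, adjusted p = 0.182) and pst, a virus resistance gene, had 0.27 ± 0.10 (adjusted p = 0.228). Vago, a secreted antiviral protein, had 0.59 ± 0.24 (adjusted p = 0.282) and cGlr1, a receptor that makes the cyclic dinucleotide for STING, had 0.46 ± 0.26 (adjusted p = 0.413). Tested within FOXO hearts, Vago rose by 1.14 (adjusted p = 0.00452) and cGlr1 by 1.07 (adjusted p = 0.00615), while in control hearts their changes were 0.04 (adjusted p = 0.956) and -0.14 (adjusted p = 0.772). They were the only 2 of the 9 called within either cross. Over all 18769 probe sets limma called 2861 within FOXO hearts and 1297 within control hearts, in either direction.

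Further members act in bacterial defence or bind RNA. PGRP-SC2, an enzyme that cleaves peptidoglycan and thereby dampens the Imd pathway, read 9.55 and 9.58 in control and 7.90 and 10.19 in FOXO hearts at 1 week and 11.23 and 11.36 and 11.57 and 11.89 at 5 weeks. Replicate 1 of FOXO at 1 week lay below all other arrays and replicate 2 above both young control arrays. Charon, a nuclear protein of the IkB family that acts with Relish, went from 10.59 and 10.50 in control and 10.68 and 10.16 in FOXO hearts to 12.40 and 12.24 and 12.09 and 12.03. Its 4 old arrays lay close together in both crosses. CG12493, which encodes a predicted protein that binds double-stranded RNA, read 4.60 and 4.78 and 6.67 and 4.37 at 1 week in control and FOXO hearts and 7.69 and 7.78 and 7.75 and 7.76 at 5 weeks. Replicate 1 of FOXO at 1 week was the only young array of this gene above 5. blanks, a double-stranded RNA-binding protein known from the testis, rose from 5.70 and 5.51 in control and 5.61 and 5.77 in FOXO hearts to 8.82 and 8.54 and 7.51 and 7.78. The old control arrays of blanks were above the old FOXO arrays, whereas the late spermatogenesis markers were low on the old control arrays and high on the old FOXO arrays. p38c, a relative of the stress-activated p38 kinases, had the smallest rise in control hearts, 0.83, and 1.77 in FOXO hearts.

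Of the Toll and Imd list, 34 genes were measured besides PGRP-SC2, 28 with a positive change over both crosses and a median of 0.22. By limma 1 rose and 0 fell: key, a subunit of the IkB kinase complex that activates Relish, rose by 0.73 ± 0.11 (adjusted p = 0.0286), a call that was lost with array medians centred and without any single control or old FOXO array. PGRP-LF, BomT2 and PGRP-SB1 had changes of 0.42 ± 0.12, 1.02 ± 0.31 and 0.95 ± 0.31 with adjusted p of 0.139, 0.169 and 0.194. The antimicrobial peptide and Bomanin genes measured from this list were lowest on replicate 1 of FOXO at 1 week: DptB read 9.78 there against 11.86 to 13.23 on the other arrays.

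Several members act in transport, acid-base balance or lipid synthesis. CAH8, a carbonic anhydrase gene, read 4.01 and 3.98 in control and 3.78 and 4.66 in FOXO hearts at 1 week and 8.38 and 8.76 and 7.44 and 7.22 at 5 weeks. The old control arrays were higher than the old FOXO arrays. CG1941, a relative of the DGAT2 enzymes of triglyceride synthesis, rose from 5.68 and 5.73 in control and 6.17 and 5.78 in FOXO hearts to 9.58 and 9.56 and 8.78 and 8.92. Amt, an ammonium transporter, read 6.71 and 6.78 and 6.95 and 6.70 at 1 week and 8.77 and 8.93 and 9.27 and 9.80 at 5 weeks in control and FOXO hearts, with its highest values in old FOXO hearts. osy, an ABC transporter needed for the water barrier of the cuticle, went from 6.30 and 5.71 and 6.46 and 6.54 to 8.48 and 8.46 and 8.07 and 8.05. A further probe set of osy, lower in signal, had a gap of 0.09, so the 2 probe sets of this gene disagree in size. The other transport and enzyme members were Zip99C, a metal transporter of the ZIP family, which rose by 1.46 in control and 1.19 in FOXO hearts, CG3168, a predicted solute carrier, by 0.93 and 1.50, and CG8353, a cytidine deaminase, by 1.25 and 2.04.

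Several members regulate transcription, the cytoskeleton or stress responses. salm, the zinc finger factor that selects the fibrillar fate of flight muscle, rose from 8.57 and 8.22 in control and 8.70 and 8.12 in FOXO hearts to 10.07 and 9.87 and 10.27 and 10.11, and its difference between the crosses did not pass the test at 5 weeks. Opbp, a zinc finger protein, went from 9.19 and 9.06 and 9.66 and 9.54 to 11.10 and 11.33 and 11.12 and 11.55. Whamy, an activator of branched actin assembly, read 6.58 and 6.12 and 5.92 and 6.89 at 1 week and 9.71 and 9.45 and 9.03 and 8.50 at 5 weeks. Its change was 3.23 in control and 2.36 in FOXO hearts. Rpt3R, the testis copy of a proteasome ATPase, rose from 5.66 and 5.48 and 5.82 and 5.35 to 8.16 and 8.10 in control and 7.30 and 7.43 in FOXO hearts. Fst, named Frost for its induction after cold, read 5.52 and 5.41 and 4.86 and 5.07 at 1 week and 9.07 and 8.87 in control but 6.92 and 6.42 in FOXO hearts at 5 weeks. mus302, named for sensitivity to mutagens, rose by 2.14 in control and 1.54 in FOXO hearts, and ImpL1, an ecdysone-inducible gene, by 1.31 and 1.66.

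Secreted and surface proteins made up another group. CG5246, a predicted serine protease, read 9.24 and 9.13 in control and 7.98 and 8.75 in FOXO hearts at 1 week and 10.21 and 10.60 and 11.76 and 12.16 at 5 weeks. Its old FOXO arrays were above every other array. CG8299, also a predicted serine protease, had 4.24 and 3.87 and 3.94 and 3.93 at 1 week and 4.99 and 5.07 and 5.96 and 6.80 at 5 weeks, and its old FOXO replicates lay further apart than its other replicates. CG10232, another predicted protease, went from 4.03 and 4.03 and 4.22 and 4.35 to 5.61 and 5.70 and 6.01 and 5.56. Beside these, the 14 measured gut markers had medians of 4.85 to 5.85 at 1 week. At 5 weeks their medians were 6.60 and 6.70 in control hearts and 5.83 and 5.98 in FOXO hearts. By limma 4 of them rose over both crosses, Jon65Aiii, alphaTry, LysX and Jon65Aiv, where 1.21% of all genes were called higher. Jon65Aiii, alphaTry and LysX had themselves met the gap and were set aside by symbol. The part of gut transcripts in the protease values was not tested. Snmp1, a membrane protein of pheromone-sensing neurons in the CD36 family, rose by 1.03 in control and 2.01 in FOXO hearts. Phk-3, of the insect chemosensory protein family, rose by 1.08 and 1.85.

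The members with the largest gaps that carry no role stated here are led by CG4269. It read 6.77 and 6.84 in control and 6.42 and 7.67 in FOXO hearts at 1 week and 10.85 and 10.81 and 11.36 and 11.46 at 5 weeks, the widest gap of all, 3.14. CG32259 rose from 5.73 and 5.80 and 6.45 and 5.92 to 9.11 and 9.38 in control and 8.56 and 8.50 in FOXO hearts. CG33093 read 4.56 and 4.34 and 3.76 and 5.96 at 1 week and 7.90 and 8.09 and 8.18 and 8.08 at 5 weeks, and its young FOXO replicates lay far apart. CG10814 went from 5.80 and 6.03 and 5.82 and 6.20 to 10.29 and 10.64 in control and 8.08 and 8.57 in FOXO hearts. CG32572 read 7.85 and 7.95 and 7.99 and 7.91 at 1 week and 10.53 and 10.47 and 9.93 and 9.85 at 5 weeks. CG32079 rose from 3.53 and 3.72 and 4.82 and 3.65 to 6.61 and 6.65 and 6.74 and 6.80. Replicates of these last 3 genes lay within 0.5 of each other in each group but for the young FOXO pair of CG32079. CG43064 read 8.23 and 8.12 and 7.0 and 7.84 at 1 week and 10.04 and 9.89 and 10.35 and 10.48 at 5 weeks. CG34227 had 6.10 and 6.38 and 4.50 and 4.95 at 1 week and 7.61 and 7.99 and 9.19 and 9.54 at 5 weeks, so that FOXO hearts held both its lowest and its highest values. The long noncoding RNA lncRNA:CR32368 had the highest mean of all members at 5 weeks, with 12.98 and 12.97 in control and 12.97 and 12.83 in FOXO hearts, after 11.11 and 11.25 and 8.90 and 11.14 at 1 week, where replicate 1 of FOXO was far below the others.

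The remaining members rose by 0.93 to 3.75 on the log2 scale in either cross. They were CG16826, CG15043, CG33468, CG15236, CG11052, CG14384, CG18744, CG15701, CG14500, CG5011, CG44251, CG42717, CG13117, CG17264, CG34265, CG3770, CG14949, CG7194 and CG11409, with Oxp. CG44251 has a further probe set, which had a gap of 1.05 against 0.85 for the one used. In the order of annotated genes along the chromosomes no members were direct neighbours. The closest were Whamy and Rpt3R, and Phk-3 and CG3770, each with 7 genes between them, and Charon and CG5011 with 8.

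The level that these genes reached was compared between hearts labelled FOXO and control at 5 weeks. The choice of members did not compare the crosses, but it used the values of both crosses at both ages. The shares of members that passed are thus not independent of that choice. In the same contrast the late spermatogenesis median was 10.12 and 9.97 on the FOXO arrays against 5.24 and 4.85 on the control arrays. Arrays labelled alike as female thus differed in transcripts of the male germ line, and the part of this difference in the values below was not tested. Srg2 was lower in old FOXO hearts, 5.36 ± 0.16 (SD, n = 2) against 7.66 ± 0.04, a log2 difference of -2.31 ± 0.16 (SE) with adjusted p = 7.22e-05 by limma. CG16826 (-2.22 ± 0.20, adjusted p = 0.000311), Fst (-2.30 ± 0.20, adjusted p = 0.00023) and CG10814 (-2.14 ± 0.24, adjusted p = 0.000853) were lower as well. CG34227 was higher, 9.37 ± 0.25 against 7.80 ± 0.26, a difference of 1.57 ± 0.23 (adjusted p = 0.00466). In all 16 of the 57 members passed, 12 lower (21.1%) and 4 higher (7.02%). Over all 11982 genes the test called 13.5%, 3.21% lower and 10.3% higher. The median difference was -0.13 over the members and -0.12 over all genes.

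The other 8 members lower in old FOXO hearts differed less. They were CG18744 (-1.30 ± 0.24), CAH8 (-1.24 ± 0.29), blanks (-1.04 ± 0.17), CG15701 (-0.84 ± 0.18), Rpt3R (-0.77 ± 0.19), CG1941 (-0.71 ± 0.17), CG32572 (-0.61 ± 0.13) and CG7194 (-0.53 ± 0.13), with adjusted p from 0.0087 for blanks to 0.0449 for Rpt3R. Under the 17 alternatives the call was lost 9 times for Rpt3R and for CG7194, 8 times for CG1941, 7 for CG32572, 6 for CAH8 and for CG15701, and 2 for blanks and for CG18744. For Rpt3R, CG7194 and CG1941 the replicate block was among these. The other 3 that were higher were CG5246 (1.56 ± 0.29, adjusted p = 0.0134), CG14384 (1.43 ± 0.27, adjusted p = 0.0164) and CG8299 (1.35 ± 0.28, adjusted p = 0.0226). Their calls were lost under 2 of 17, 4 of 17 and 3 of 16 alternatives. Srg1 had a difference of 1.62 ± 0.49 that missed the threshold (adjusted p = 0.0968). For Sting the difference was 0.04 ± 0.22, with a 95% interval from -0.48 to 0.56, and for Nazo it was 0.42 ± 0.43, from -0.58 to 1.43. Of the 41 members that did not pass, 21 had an interval within 1 of zero on the log2 scale.

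The 5 calls of Srg2, CG16826, Fst, CG10814 and CG34227 were kept under every alternative that was run, and the count of 16 was not. It was 31 with array medians centred, which moved the median difference of all probe sets from -0.16 to -0.52, with 27 lower and 4 higher, and there 47.5% of all genes passed. It was 29 without either or both of the FOXO arrays at 1 week, where 26.6% of all genes passed. It was 10 without either control array at 1 week, 5 and 8 without replicate 1 or 2 of control at 5 weeks, and 9 and 6 without replicate 1 or 2 of FOXO at 5 weeks.

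**Figure D3:**
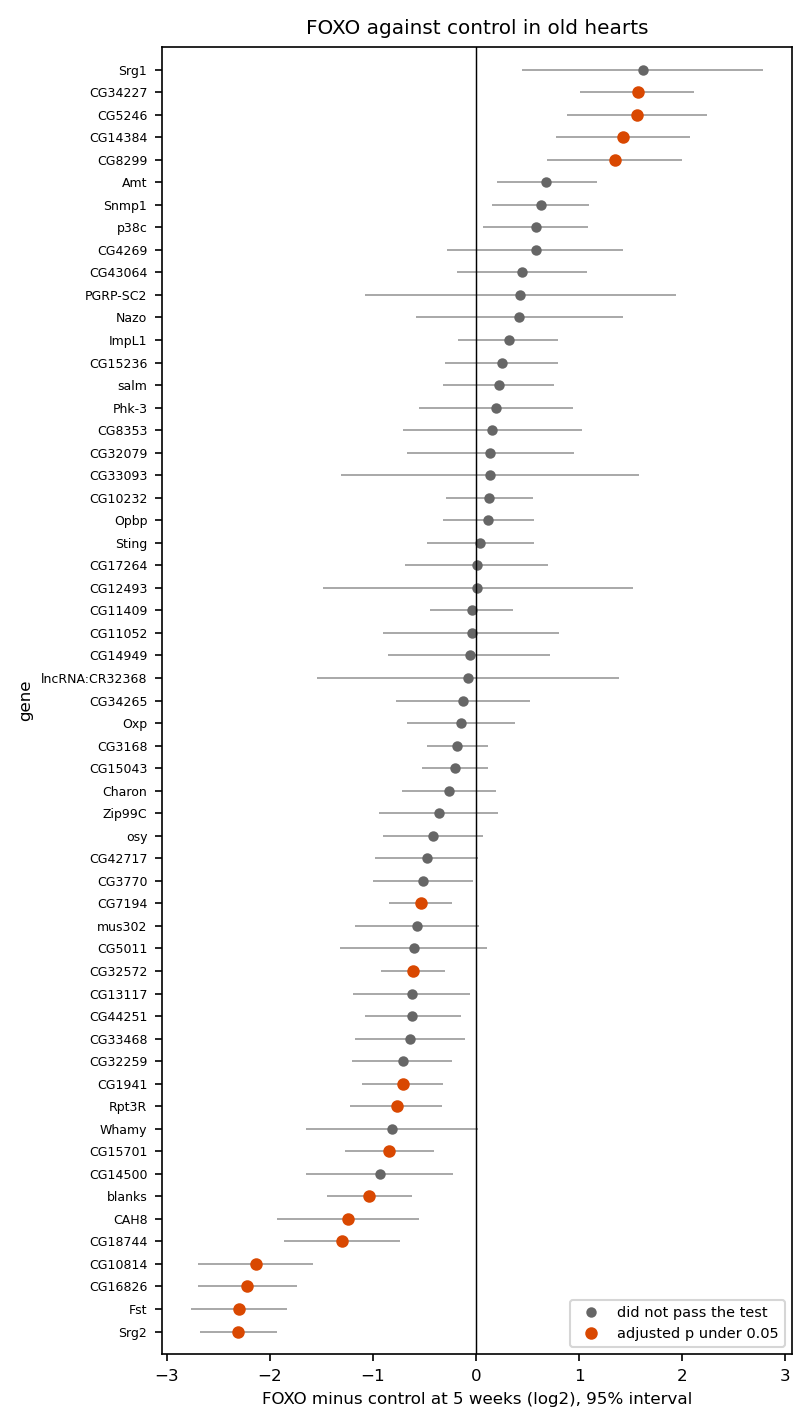
Log2 difference of FOXO minus control hearts at 5 weeks for each of the 57 genes, with the 95% interval of the limma fit as bars and the genes that passed the test coloured. Of these, 12 lie left of zero, led by Srg2, Fst, CG16826 and CG10814, and 4 lie right of it, CG34227, CG5246, CG14384 and CG8299.

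At 1 week FOXO and control hearts differed in fewer of the members. By limma 3 passed, all lower in FOXO hearts: CG34227 (-1.52 ± 0.23, adjusted p = 0.0129), CG3168 (-0.74 ± 0.13, adjusted p = 0.021) and CG44251 (-1.09 ± 0.20, adjusted p = 0.0261). That is 5.26% of the members, against 5.97% of all genes. The 4 genes lowest in old FOXO relative to old control hearts lay closer together when young. They were picked by their difference at 5 weeks, so this is a description. Srg2 had -0.11 ± 0.16 with a 95% interval from -0.48 to 0.26, and CG16826 had 0.02 ± 0.20 (-0.46 to 0.50). CG10814 had 0.10 ± 0.24 (-0.46 to 0.66), and Fst had -0.50 ± 0.20 (-0.97 to -0.03, adjusted p = 0.291 by limma). Without replicate 1 of FOXO at 1 week 6 members and 7.53% of all genes passed. Without replicate 2, which leaves the array that stood apart, 26 members and 36.9% of all genes did. Without either control array at 1 week 0 passed, and without any 1 of the 4 arrays at 5 weeks 1 did. Over both ages together 0 of the members passed by limma, with 13 at an unadjusted p under 0.05, against 0.134% of all genes. The smallest adjusted p was 0.202, for CG44251.

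The last comparison asked directly whether the change with age differed between the crosses. It shares its arrays with the comparison at 5 weeks and with the choice of members, so the values are given side by side and are not independent. Of the 57 members 33 rose more in control and 24 rose more in FOXO hearts, and 22 differed by less than 0.5. The difference passed for 9 (15.8%), 6 with the smaller rise in FOXO hearts and 3 with the larger, against 12.5% of all genes, 2.25% lower and 10.2% higher. CG16826 rose by 3.73 ± 0.20 in control and by 1.50 ± 0.20 in FOXO hearts, a difference of -2.24 ± 0.29 (adjusted p = 0.00212). CG10814 had a difference of -2.23 ± 0.33, Srg2 of -2.20 ± 0.22 and Fst of -1.80 ± 0.28, with adjusted p of 0.00472, 0.000561 and 0.00603. blanks (-1.12 ± 0.25, adjusted p = 0.0331) and CG1941 (-0.98 ± 0.23, adjusted p = 0.0461) followed, and each of these 2 calls was lost under 9 of 15 alternatives.

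In the opposite direction, which is also that of the late spermatogenesis markers, CG34227 rose by 1.56 ± 0.23 in control and by 4.64 ± 0.23 in FOXO hearts, from 2.94-fold to 25.0-fold, a difference of 3.09 ± 0.33 (adjusted p = 0.000798). CG5246 (2.38 ± 0.40, adjusted p = 0.0095) and CG14384 (2.30 ± 0.39, adjusted p = 0.00913) also rose more in FOXO hearts. The call was lost under 3 of 15 alternatives for CG5246 and 1 of 15 for CG14384. Srg1 had a difference of 2.73 ± 0.70 that missed the threshold (adjusted p = 0.0595), and its young FOXO replicates were far apart. Sting and Nazo had 0.04 ± 0.31 and -0.78 ± 0.60, with 95% intervals from -0.70 to 0.77 and from -2.20 to 0.65. The count of 9 became 19 and 28 without replicate 1 or 2 of FOXO at 1 week, where 20.4% and 36.9% of all genes passed. It was 5 without replicate 1 of control at 5 weeks, 6 without replicate 2 of FOXO at 5 weeks, and 23 with array medians centred, 4 of them with the larger rise in FOXO hearts, where 45% of all genes passed.

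**Figure D4:**
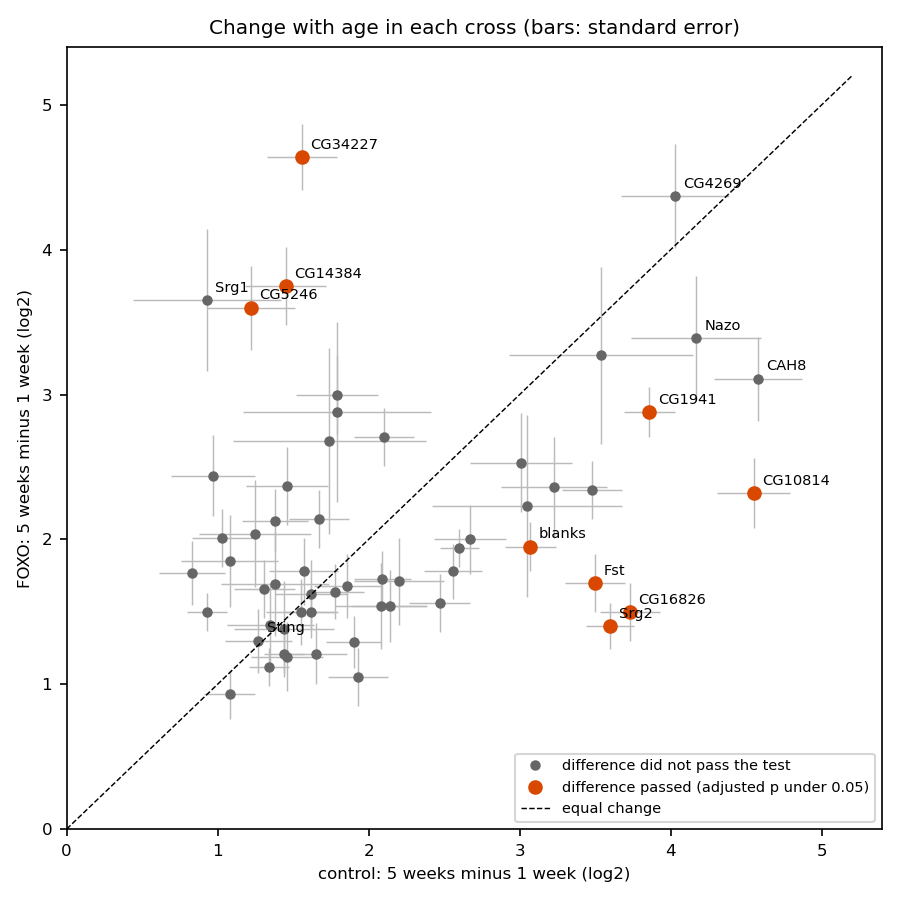
Change with age (5 weeks minus 1 week, log2) in control hearts (x axis) and FOXO hearts (y axis) for the 57 genes, with standard errors as bars and the line of equal change. Genes whose change differed between the crosses by the limma test are coloured: 6 lie below the line, among them Srg2, CG16826, Fst and CG10814, and 3 above it, CG34227, CG5246 and CG14384.

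Transcripts of other cell types moved with age on some arrays, and their levels are set beside the members here. Transcripts that female fat body and oenocytes make were at 6.75 and 6.59 in control hearts at 1 week and at 13.03 and 13.04 at 5 weeks. On replicate 1 of FOXO at 1 week they were at 13.44, as high as in old hearts. The members' medians were 6.71 to 6.88 on the 4 young arrays, 9.61 and 9.45 in control hearts at 5 weeks and 9.03 and 8.92 in FOXO hearts at 5 weeks. The members' values on the young and old arrays were set by the choice of genes, so nothing about these cell types can be read from them. By limma 22 of the 24 spermatogenesis markers were lower in old than in young control hearts, where 1297 of all 18769 probe sets passed. All 24 were higher in old than in young FOXO hearts, where 2861 passed, both counts in either direction. The median of the hemocyte markers lay between 10.23 and 11.00 on all arrays and that of the pericardial nephrocyte markers between 11.35 and 12.32, with the lowest values in old FOXO hearts. Malpighian tubule markers had medians of 4.32 to 5.22 at 1 week and 5.14 to 5.62 at 5 weeks. Gene by gene, only 4 of the 10 had a positive change over both crosses, with a median of -0.13, and 0 passed by limma. Over both crosses limma called 4 of 16 epidermis and cuticle markers lower with age and 2 of 8 trachea markers. It also called 2 of 13 male accessory gland and 1 of 12 hemocyte markers lower, and 0 on these 4 lists higher, against 0.976% of all genes lower. None of the 57 genes is on any of the 14 marker lists, which depends on the genes set aside by symbol. Of those, LysX, Jon65Aiii and alphaTry are on the gut list and Cpr49Ac is on the epidermis and cuticle list. Each of them met the gap, with 2.21, 1.54, 0.77 and 0.95. The part of the Malpighian tubule and fat body transcripts in the single members' rises was not tested. Late spermatogenesis medians fell from 9.1 on each young control array to 5.24 and 4.85 on the old ones. In FOXO hearts they went from 5.0 and 6.3 to 10.12 and 9.97. Age and these transcripts cannot be told apart within either cross, nor age and the female-specific transcripts within control hearts.

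**Figure D5:**
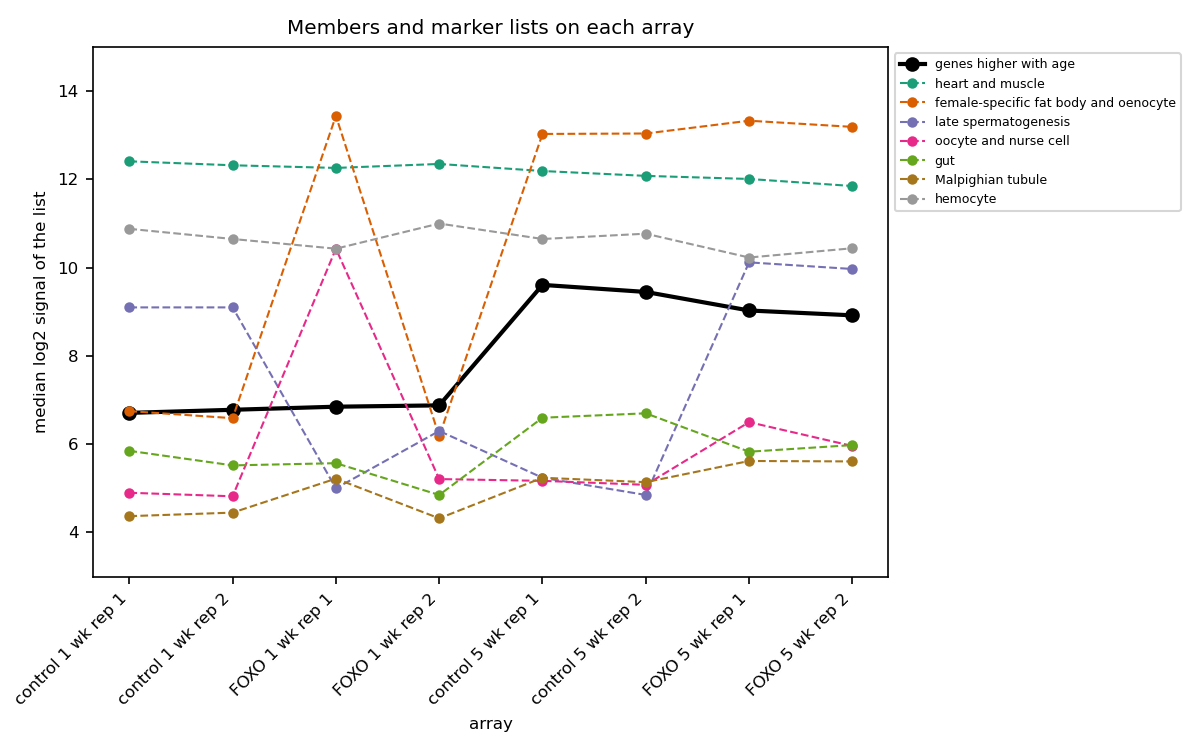
Median log2 signal on each array (x axis) of the 57 genes (thick line) and of 7 marker lists (dashed lines). The members' step from 6.71 to 6.88 on the young arrays to 8.92 to 9.61 on the old arrays is how they were chosen. On replicate 1 of FOXO at 1 week the oocyte list reads 10.43 and the female-specific list 13.44.

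Beyond immunity, the other 10 pathway lists held none of the members, but these lists are not complete. The metal handling list leaves out the member Zip99C, and the lipid list leaves out the member CG1941. The metallothionein genes MtnD and MtnB, with gaps of 1.26 and 0.85, were set aside by symbol and are not on the metal list. Across all 12 lists 207 further genes were measured, of which 2 rose and 3 fell with age over both crosses by limma. The same test called 1.21% of all genes higher and 0.976% lower, and whether the lists differ from these shares was not tested. The 2 that rose were key and Spn88Ea, a serpin, which rose by 1.01 ± 0.12 (adjusted p = 0.0148) and lay just outside the gap. The 3 that fell were TotC, a Turandot stress peptide (-1.88 ± 0.15, adjusted p = 0.00492), trol, the basement membrane proteoglycan perlecan (-0.97 ± 0.13, adjusted p = 0.0203), and Jhe, an esterase that degrades juvenile hormone (-2.07 ± 0.29, adjusted p = 0.024). Heat shock proteins (9 measured), JNK and cell death genes (15), lipid storage genes (26), clock genes (10), metal handling genes (23) and sugar and amino acid transporters (19) had 0 past this limma test, and 0 to 4 genes each at an unadjusted p under 0.05. Of the basement membrane list 13 of 15 had a negative change, with a median of -0.26. The count of 5 called genes was 1 when any single control array or old FOXO array was left out, a gene that fell, so that the rises of key and Spn88Ea were both lost, as they were with array medians centred. It was 17 and 9 without replicate 1 or 2 of FOXO at 1 week.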

How the data were processed

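Amplified RNA of dissected hearts was measured on 8 Affymetrix GeneChip arrays. The authors deposited 1 log2 value per probe set and array, after a summarisation and normalization whose methods are not given in the labels, and the submitters' processing notes name limma. Whether and how the values were centred between arrays is likewise unknown, and array medians lay between 6.05 and 6.43.

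Of 18952 probe sets 183 controls were left out. The platform annotation gave 13647 of the remaining 18769 a single symbol, 402 several and 4720 none, and only those with a single symbol were named. Symbols were updated through RefSeq gene tables, used for names and gene order only.

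The values were fitted with limma 3.58.1 in R 4.3.3 (lmFit and eBayes, two-sided, Benjamini-Hochberg over all 18769 probe sets, called at an adjusted p under 0.05). A model of 4 group means (residual degrees of freedom: 4) gave the comparison of FOXO and control hearts at each age and the difference of the age change, and genotype plus age (residual degrees of freedom: 5) gave the comparisons over both ages and over both crosses. Shares of all genes count the 11982 probe sets that represent a gene. The number of arrays limits the precision. The fit was tested on simulated data. Members, pathway lists and marker lists were chosen with earlier results of these data known. Every member is named, with values on each array for the 20 largest gaps, for members on a pathway list and for some others with a stated role, and tests for those that passed. Those others, and DptB, were chosen after their values were seen. Alternatives changed the normalization, centring, gap, filter, weights, block, arrays and threshold. Promoter motifs were not analysed here.

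Replicate numbers were checked as pairs: deviations of same-numbered arrays correlated at 0.01 to 0.33 between groups, so they were not taken to pair the samples.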

Additional observations from a re-analysis of the deposited data

Results flagged for a closer look

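In 9 members the change with age differed between the crosses by limma's test of the difference itself. The rise was smaller in FOXO than in control hearts for CG16826 (a difference of -2.24 on the log2 scale), CG10814 (-2.23), Srg2 (-2.2), Fst (-1.8), blanks (-1.12) and CG1941 (-0.98). It was larger in FOXO hearts for CG34227 (3.09), CG5246 (2.38) and CG14384 (2.3). The 24 late spermatogenesis markers also changed differently with age in the crosses, with medians of 9.10 and 9.10 at 1 week and 5.24 and 4.85 at 5 weeks in control hearts, and of 5.00 and 6.30 and then 10.12 and 9.97 in FOXO hearts. By limma 22 of them fell in control and 24 rose in FOXO hearts, where 1297 and 2861 of all 18769 probe sets passed in either direction. The part of these markers in the values above was not tested. The young FOXO arrays, 1 of which stood apart in oocyte transcripts, enter each of these values, and their part in them was not tested beyond leaving each array out. With either left out, all 9 still passed.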

How the results depend on the processing

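The number of members was 101 with a gap of 0.5, 35 with a gap of 1, 126 without both young FOXO arrays and 60 to 85 with 1 array left out. With quantile normalization it was 57 (53 shared), and with array medians centred 44 (42 shared). Leaving out an array can only widen a gene's gap. With arrays left out the number of members could thus only stay or grow, and all 57 had to remain. The count of 16 at 5 weeks was 31 with medians centred, 26 with only the 4 arrays compared, 29 without both young FOXO arrays (chosen after seeing the data) and 5 to 29 with 1 array left out. The count of 3 at 1 week was 0 with array weights or only the 4 arrays compared, and 0 to 26 with 1 array left out. The count of 9 for the difference of the age change was 23 with medians centred, 15 at an adjusted p under 0.1 and 5 to 28 with 1 array left out. The count of 0 over both ages was 1 with array weights and 0 to 1 with 1 array left out. The 5 called genes of the pathway lists were 2 with medians centred, both lower, 10 with trend and robust, 38 with array weights, 14 at an adjusted p under 0.1 and 1 to 17 with 1 array left out. Of 454 alternatives for 28 calls of single genes, 354 kept the call, 100 lost it and 0 turned its direction. With the replicate number as a block the counts were 13 at 5 weeks, 3 at 1 week, 7 for the difference and 3 for the lists. Where fewer arrays entered, the fit had fewer degrees of freedom, and a lone array was assumed to vary like the other groups. Otherwise the cause was not tested.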
